A study of Homo sapiens with 12 samples.

Results

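Cells of HT-29, a long-established line from a human colon adenocarcinoma that is labelled APC mutant, were infected with a lentivirus carrying the open reading frame of CTNNB1 or of GFP, and RNA was collected 2 days later. The 3 CTNNB1 and 3 GFP libraries make up 6 of the 12 libraries of the series and were taken by their labels. Of 25528 genes in the table, the 11624 with a mean of at least 1 TPM (a length-corrected share of all transcripts in a library) over these 6 libraries were compared on log2(TPM + 1). Both groups shared the APC mutation, the McCoy medium with serum, the mRNA library kit and the virus, and the labels give neither the promoter that drove the open reading frame nor whether replicates came from separate cultures. P-values therefore measure only the spread between these libraries. The other 6 libraries carried a doxycycline-induced hairpin, the control shNT1 or one against APC, and were taken 1 day after adding 2 µM doxycycline, and they enter below only as levels set beside those of GFP and CTNNB1.

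CTNNB1 encodes β-catenin, which joins E-cadherin to the actin cytoskeleton at cell contacts and, when it escapes the APC-containing destruction complex, enters the nucleus and activates genes bound by TCF and LEF factors. In the colon this pathway keeps crypt base cells dividing and holds back differentiation, and its classical targets are feedback inhibitors, stem cell receptors and transcription factors. The question followed here is which pathways moved outside those targets.

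The CTNNB1 gene itself measured 144, 145 and 149.6 TPM in the GFP libraries and 165, 159.6 and 156 TPM in the CTNNB1 libraries. The groups did not overlap, but the difference of 0.13 on the log2 scale (SE 0.04, limma adjusted p = 0.059) did not pass the test. It did pass after quantile normalization (adjusted p = 0.0477), without CTNNB1 replicate 1 (0.0495) and with the GC trend removed (0.0229), and it was 0.06 with an adjusted p of 0.293 under median-ratio scaling. Whether the TPM values count reads of the viral open reading frame is not given in the sources used here, so this value may not measure the transgene. The classical WNT list did move, with 18 of 25 tested members called higher, 1 called lower and a median log2 change of 0.69. Of the 23 members averaging at least 1 TPM in both groups 16 were higher and 1 lower. LGR5, a crypt base stem cell receptor chosen after its values were seen, measured 11.7, 10.985 and 11.9 TPM in GFP and 34.3, 31.3 and 28.97 TPM in CTNNB1.

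Between 15357 and 16138 genes had a value above 0 per library, and the 10 most abundant genes took 9.07% to 9.97% of TPM. Log-scale correlations across genes ran from 0.994 to 0.997 within groups and from 0.987 to 0.992 between them. Principal component 1 accounted for 62.8% of the spread and separated the groups, with CTNNB1 replicate 1 farthest out. Of 14 colon epithelial markers, 10 had a mean of at least 1 TPM in both groups, with a summed level of 11670 to 11830 TPM in GFP and 12910 to 13000 TPM in CTNNB1. None of 10 fibroblast markers (summed 1.26 to 1.83 TPM in GFP, 0.718 to 1.32 TPM in CTNNB1) or 6 endothelial markers (0.817 to 1.13 TPM and 0.620 to 1.01 TPM) reached that level. Of 8 immune markers 2 did, CD68 and CD14, and all 8 summed to 28.8 to 30.1 TPM in GFP and 14.95 to 16.97 TPM in CTNNB1. Of 5 markers of the kidney line commonly used to package lentivirus 1 had a mean of at least 1 TPM in CTNNB1 and none did in GFP. The sum over these 5 was 0.537 to 0.886 TPM in GFP and 1.43 to 2.10 TPM in CTNNB1. Its part in the results below was not tested.

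At an adjusted p under 0.05 from limma's moderated test, 2730 genes (23.5% of those tested) were called, 1898 higher (16.3%) and 832 lower (7.16%) in CTNNB1, and the groups did not overlap for 5021 genes (43.2%). The balance depended on scaling. The median of all genes was 0.06 on the log2 scale, and when it was set to about 0 by a median-ratio scaling the calls were 1254 higher and 1461 lower, and 1349 higher and 1199 lower after quantile normalization. The number of calls fell to 1619 without GFP replicate 1, 1484 without GFP replicate 2, 1693 without GFP replicate 3 and 1772 without CTNNB1 replicate 2. Of the calls, 65 higher and 30 lower genes differed by at least 1 on the log2 scale, and of these, 9 of the higher and none of the lower stood on the classical WNT list. Another list of known function held 19 of the higher and 11 of the lower, and 37 and 19 stood on none.

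The group that moved most uniformly was the proteasome. All 31 listed subunits of the 26S proteasome were tested and all 31 were called lower in CTNNB1, against 7.16% of all genes tested, with a median log2 change of -0.50. The proteasome is the chamber that degrades ubiquitin-tagged proteins. Its core particle holds the proteases inside rings of alpha and beta subunits, and its regulatory particle recognises, unfolds and feeds in the substrate. In human cells its subunit genes are commonly raised together by the factor NRF1, encoded by NFE2L1, through antioxidant response elements.

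The summed level of the 31 subunits was 12830, 12460 and 12490 TPM in the GFP libraries and 8766, 8797 and 9076 TPM in the CTNNB1 libraries. All 14 core subunits fell, from -0.67 for PSMB2 to -0.38 for PSMA3, and all 17 regulatory subunits fell, from -0.76 for PSMC4 to -0.29 for PSMD12. PSMC4, one of the ATPases that unfold substrates, measured 258, 261 and 265 TPM in GFP and 150.2, 156 and 154 TPM in CTNNB1. The difference was -0.76 (SE 0.041, limma adjusted p = 4.24e-06), and the lowest GFP library lay well above the highest CTNNB1 library. PSMB2, a beta subunit of the core, measured 194, 188 and 188 TPM in GFP and 113, 119.6 and 125 TPM in CTNNB1, a difference of -0.67 (SE 0.049, adjusted p = 2.62e-05). PSMA7, an alpha subunit and the most abundant of the 31, fell from 1499 ± 30.7 to 1074 ± 61.2 TPM (SD, n = 3 libraries per group), and PSMA4 fell from 875 ± 22.6 to 660.1 ± 21.0 TPM. PSMD13, a scaffold subunit of the regulatory lid, fell from 499 ± 28.4 to 309 ± 4.50 TPM. The catalytic subunits PSMB5 (chosen after its values were seen) and PSMB6 fell by 0.55 and 0.63 on the log2 scale. All 31 stayed called lower under the median-ratio and quantile scalings, and 30 or 31 did when any 1 library was left out, PSMD12 being lost without GFP replicate 1 (adjusted p = 0.060) and without CTNNB1 replicate 2 (adjusted p = 0.0503).

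**Figure D1:**
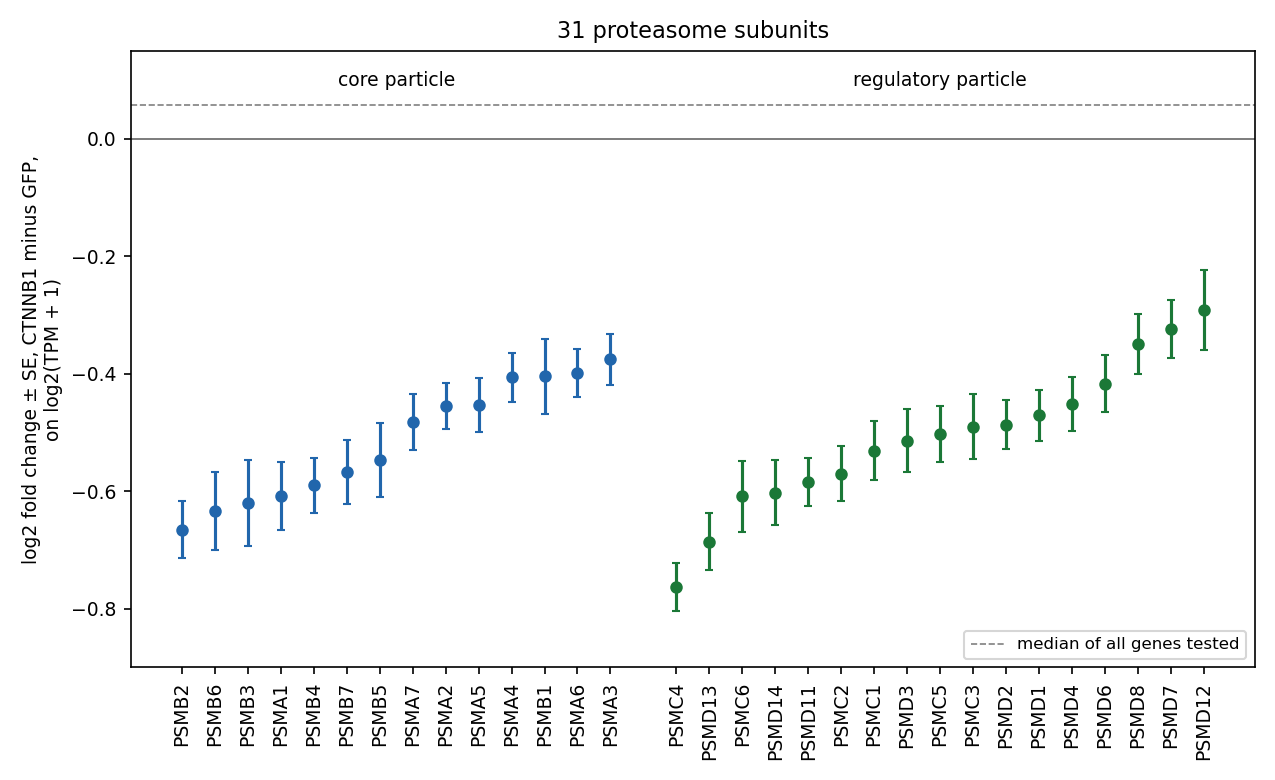
Log2 fold change (CTNNB1 minus GFP, on log2(TPM + 1)) of the 31 proteasome subunits, with bars of 1 standard error from limma and 3 libraries per group. Core subunits are on the left and regulatory subunits on the right, and every point lies below both 0 and the dashed median of all 11624 genes, from -0.76 for PSMC4 to -0.29 for PSMD12.

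Genes around the proteasome were looked at after these values were seen. Of 8 assembly chaperones 1 was called lower, 1 higher and 6 neither. The one lower was POMP, which helps the beta rings form, at 528, 496 and 472 TPM in GFP and 376, 352 and 345 TPM in CTNNB1. Of 14 genes of the ubiquitin and p97 system 7 were called lower and 1 higher. They included the p97 ATPase gene VCP, which extracts ubiquitinated proteins and fell from 457 ± 13.9 to 317 ± 7.37 TPM (log2 change -0.52), and its cofactors UFD1 (-0.47) and NPLOC4 (-0.36). Among 8 activators and associated proteins 3 were lower and 1 higher. Leaving out GFP replicate 3 left 1 of those 3, and leaving out any GFP replicate or CTNNB1 replicate 2 left none higher.

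Levels in the hairpin libraries put these falls in context. For all 31 subunits the GFP mean was the highest of the 4 groups of the series, whereas over all genes tested GFP was highest for 21.4%. The summed subunits were 8055 to 8310 TPM in shNT1 and 7795 to 7985 TPM in the APC hairpin libraries, below the 8766 to 9076 TPM of CTNNB1. The same held widely: of the 832 genes called lower GFP was highest of the 4 groups for 690 (82.9%), and of the 1898 called higher it was lowest for 1601 (84.4%). The GFP libraries also enter each of those calls, so part of these shares follows from the calls. Vector, day and doxycycline differ between the pairs of groups, so whether the difference belongs to CTNNB1 or to GFP cannot be told apart here.

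The targets of NRF2, encoded by NFE2L2, moved the same way. NRF2 is the master regulator of the antioxidant response. It is held in the cytoplasm by KEAP1 until oxidants or electrophiles free it, and it then binds antioxidant response elements with small MAF partners. Of 23 listed targets 22 were tested, and 19 were called lower and none higher in CTNNB1, against 7.16% and 16.3% of all genes, with a median log2 change of -0.33. The mean over these targets on the log2(TPM + 1) scale was 7.58 to 7.64 in GFP and 7.13 to 7.22 in CTNNB1, without overlap, and 7.03 to 7.07 in shNT1 and 6.78 to 6.86 in the APC hairpin group. GFP was the highest of the 4 groups for 20 of the 22, against 82.9% of all genes called lower. As 19 of the 22 were called lower, part of this count follows from the calls.

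Glutathione and thioredoxin genes made up 8 of the tested targets, and all 8 fell. GCLM, the modifier subunit of the enzyme that starts glutathione synthesis, measured 85.0, 76.4 and 77.1 TPM in GFP and 47.9, 40.7 and 43.5 TPM in CTNNB1. Its log2 change was -0.84 (SE 0.069, limma adjusted p = 5.08e-05), with a gap between the groups several times their spread. SRXN1, which repairs overoxidised peroxiredoxins, fell from 106 ± 4.67 to 62.1 ± 4.40 TPM (SD, n = 3) and SLC7A11, the cystine importer, from 125 ± 3.61 to 81.0 ± 10.1 TPM. The change was smaller for GCLC, the catalytic partner of GCLM, at -0.26, and for TXNRD1, thioredoxin reductase, at -0.32, both chosen after their values were seen.

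Among detoxification and NADPH genes 11 of 14 fell. AKR1B10, an aldo-keto reductase that reduces reactive aldehydes, measured 528, 506 and 508 TPM in GFP and 203, 208 and 235 TPM in CTNNB1, a log2 change of -1.25 (SE 0.058, limma adjusted p = 2.08e-06). OSGIN1, an oxidative stress growth inhibitor, measured 16.8, 16.4 and 18.4 TPM in GFP and 6.36, 7.76 and 8.28 TPM in CTNNB1. ME1, the cytosolic malic enzyme that yields NADPH, fell from 144 ± 7.09 to 90.1 ± 4.65 TPM, and TALDO1, transaldolase of the pentose phosphate path, from 1063 ± 9.69 to 756 ± 33.5 TPM (both chosen after their values were seen). In all 4 genes the lowest GFP library exceeded the highest CTNNB1 library. FTH1, the ferritin heavy chain, was not called, at 5896 ± 171 and 5540 ± 257 TPM. HMOX1, heme oxygenase, was not called either and stayed near 7 TPM, with means of 6.96 and 6.72.

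The transcripts of NFE2L1 and NFE2L2 themselves were not called lower. NFE2L1 measured 112, 114 and 119 TPM in GFP and 117, 118 and 114 TPM in CTNNB1, and NFE2L2 measured 104, 106 and 106 TPM against 119, 106 and 103 TPM. Both sets of libraries overlapped and neither gene was called (adjusted p = 0.811 and 0.572 from limma). NFE2L3, another member of the family, rose from 123 ± 1.82 to 155 ± 11.1 TPM, and the partner MAFG fell from 26.5 ± 1.30 to 21.1 ± 1.36 TPM. These 4 genes were looked at after the target lists. So was a list of 12 such factors and their regulators, of which 11 were tested. In it 1 gene was called higher and 3 lower, MAFG among the lower, and 1 was lower without GFP replicate 1.

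Antioxidant response elements were searched in RefSeq promoters of the build GRCh38.p14 as the letters TGACNNNGC on either strand within 250 bases before each start. The letters stood in 10.9% of all 35116 windows, in 12.1% of the windows of genes tested, in 14.9% of windows of genes called lower and in 10.2% of those called higher. They stood in 5 of 18 windows (27.8%) of the 16 NRF2 targets matched and in 5 of 32 windows (15.6%) of the 26 proteasome genes matched. Within the proteasome list, the 5 genes with the letters had a median of -0.50 and the 21 without had -0.53. Matches of 6 called genes, 3 from each list, are printed 5′ to 3′ on the gene's strand with the letters in capitals, because the factors of this paragraph are known to read such letters. Matches in PSMD3, PSMD12 and PGD and at another start of TXNRD1 are not printed. A match is a description of the sequence and no measured binding. The intervals are chr1:93909441-93909479 (minus strand) for GCLM, chr6:83431165-83431203 (minus) for ME1, chr12:104215665-104215703 (plus) for TXNRD1, chr15:78540645-78540683 (plus) for PSMA4, chr17:38752622-38752660 (plus) for PSMB3 and chr17:63827649-63827687 (plus) for PSMC5.
GCLM: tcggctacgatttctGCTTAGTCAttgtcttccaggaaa
ME1: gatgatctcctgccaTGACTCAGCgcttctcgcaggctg
TXNRD1: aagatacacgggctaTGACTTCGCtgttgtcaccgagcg
PSMA4: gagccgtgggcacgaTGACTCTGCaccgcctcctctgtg
PSMB3: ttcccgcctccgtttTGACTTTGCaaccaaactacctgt
PSMC5: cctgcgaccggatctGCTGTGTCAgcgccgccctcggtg
In GCLM and PSMC5 the letters lie on the opposite strand and so read in reverse.

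Other antioxidant enzymes were more mixed, with 9 of 22 tested called lower and 3 higher, against 7.16% and 16.3% of all genes tested. PRDX1, an abundant peroxiredoxin, fell from 2249.8 ± 38.4 to 1739 ± 63.7 TPM, and MGST1, a membrane glutathione transferase, from 347 ± 5.16 to 249 ± 6.15 TPM. Of these calls the 3 higher ones varied most with single libraries, with none left without GFP replicate 1 or GFP replicate 3 and 1 left without GFP replicate 2.

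Several other groups of abundant proteins were lower in part. Over all genes tested 7.16% were called lower and 16.3% higher, and the rises counted in these groups lie under that share. In glycolysis 7 of 20 tested members fell and none rose, among them ALDOA, aldolase, from 703 ± 7.94 to 508 ± 48.0 TPM, and PFKP, a phosphofructokinase, from 134 ± 5.80 to 103 ± 5.69 TPM. In the lysosome list 9 of 42 fell and 4 rose. The 3 largest falls were GLA, α-galactosidase, from 161 ± 4.77 to 95.8 ± 2.83 TPM, CTSD, cathepsin D, from 589.9 ± 6.88 to 368 ± 36.7 TPM, and PSAP, the precursor of the saposins, from 782 ± 10.0 to 559.9 ± 22.5 TPM. The lysosome count was 5 lower without GFP replicate 1 or 3 and 4 without GFP replicate 2, with 1 higher each time, though these 3 genes stayed called. Of 16 heat shock genes 6 fell, led by HSPA1B (-0.57) and HSPA1A (-0.53), and 3 did without GFP replicate 2, GFP replicate 3 or CTNNB1 replicate 2. HSPA1A and HSPA1B are near-identical copies, so reads may be shared between them. SQSTM1, which carries ubiquitinated cargo to autophagosomes and is a known NRF2 target, fell from 247 ± 7.10 to 165 ± 7.65 TPM, while over the autophagy list 4 of 30 were called lower and 2 higher, and none of the higher calls was left without any GFP replicate or without CTNNB1 replicate 2. The lower autophagy count was 8 without CTNNB1 replicate 1 and under median-ratio scaling.

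**Figure D2:**
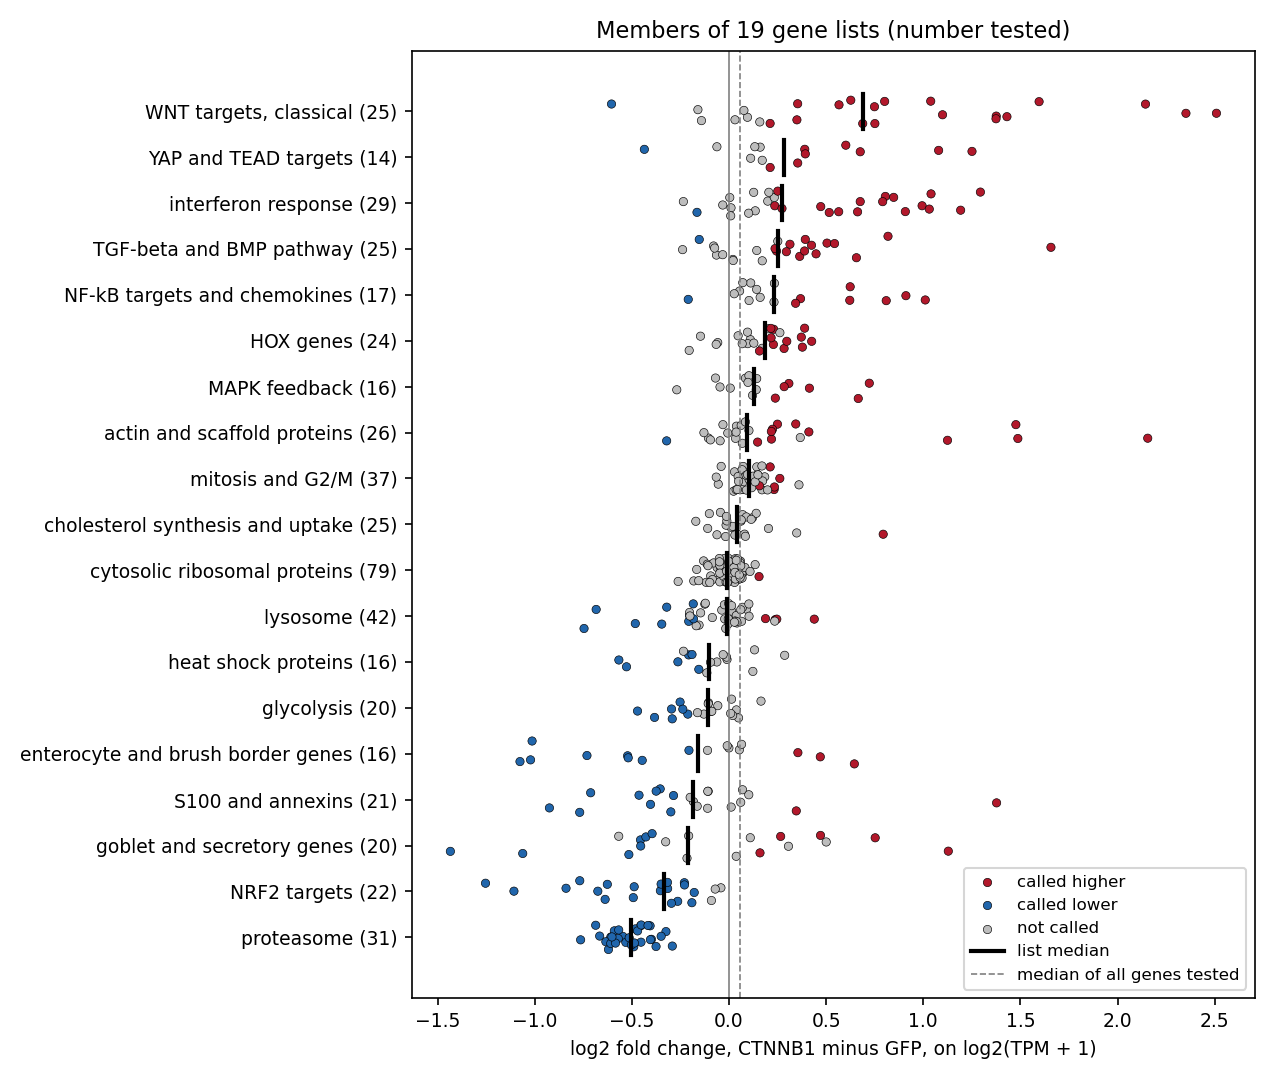
Log2 fold change (CTNNB1 minus GFP, on log2(TPM + 1)) of every tested member of 19 gene lists, with the number tested in brackets, called members coloured and the list median as a black bar. The 31 proteasome points lie wholly below 0, and the 79 cytosolic ribosomal proteins stay near 0. Farthest to the right reach single members of the WNT (2.51), actin (2.16), TGF-beta and BMP (1.66) and S100 and annexin (1.38) lists. Next come those of the interferon (1.29), YAP (1.25), goblet (1.13) and NF-kB and chemokine (1.01) lists.

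Interferon-stimulated genes stood higher in CTNNB1. These genes are induced when pattern receptors such as TLR3 sense viral nucleic acid and interferon signals through STAT and IRF factors at interferon-stimulated response elements, and many of their products block viral entry or translation. Of 40 listed genes 29 were tested, and 17 were called higher and 1 lower, against 16.3% and 7.16% of all genes. Their median log2 change was 0.27. Most of the higher calls were effectors, with 14 of 19 tested members higher, none lower and a median of 0.66. The signalling genes gave 3 higher and 1 lower of 10.

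IFITM3, a membrane protein that blocks virus entry, measured 12.5, 14.3 and 12.98 TPM in GFP and 35.8, 33.6 and 32.4 TPM in CTNNB1, a log2 change of 1.29 (SE 0.069, limma adjusted p = 3.85e-06). IFIT2 measured 3.96, 4.12 and 4.58 TPM in GFP and 13.8, 10.8 and 8.64 TPM in CTNNB1, a change of 1.19 (SE 0.14, adjusted p = 0.000292). Both genes were separated between the groups, IFIT2 with more spread among CTNNB1 libraries. IFIT1, which binds foreign RNA caps, rose from 2.05 ± 0.032 to 5.28 ± 0.59 TPM, and DDX60, a helicase, from 2.06 ± 0.27 to 5.26 ± 0.66 TPM (SD, n = 3). Chosen after their values were seen, IFIT3 (0.91), OASL (0.85), IFI27 (0.80), IFITM2 (0.79), TLR3 (0.68), IFI6 (0.66) and OAS3 (0.56) were also called higher on the log2 scale. IFITM2 and IFITM3 are close copies, so their reads may be shared. ISG15 at 41.2, 51.4 and 51.8 TPM in GFP and 61.2, 54.5 and 50.8 TPM in CTNNB1 overlapped and was not called (0.21, adjusted p = 0.1498). The sensing factor IRF3 was the 1 lower call (-0.16, adjusted p = 0.026), and it was lost without GFP replicate 1, 2 or 3 or without CTNNB1 replicate 2 (adjusted p = 0.098, 0.088, 0.090 and 0.090).

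The mean over the 29 genes on the log2(TPM + 1) scale was 3.27 to 3.34 in GFP and 3.65 to 3.86 in CTNNB1. In shNT1 it was 4.10 to 4.18 and in the APC hairpin libraries 3.84 to 3.96, so CTNNB1 lay above GFP, below shNT1 and overlapped the APC hairpin libraries. GFP was the lowest of the 4 groups for 24 of the 29, against 40.4% of all genes tested and 84.4% of all genes called higher. As 17 of the 29 were called higher, part of this count follows from the calls. IFI27 had the same order of groups as the list mean, with 1.76 ± 0.26 TPM in GFP, 3.804 ± 0.28 TPM in CTNNB1, 15.2 ± 1.89 TPM in shNT1 and 6.97 ± 1.03 TPM in the APC hairpin group. The viral dose per library is not given in the labels, and its part in these levels was not tested.

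**Figure D3:**
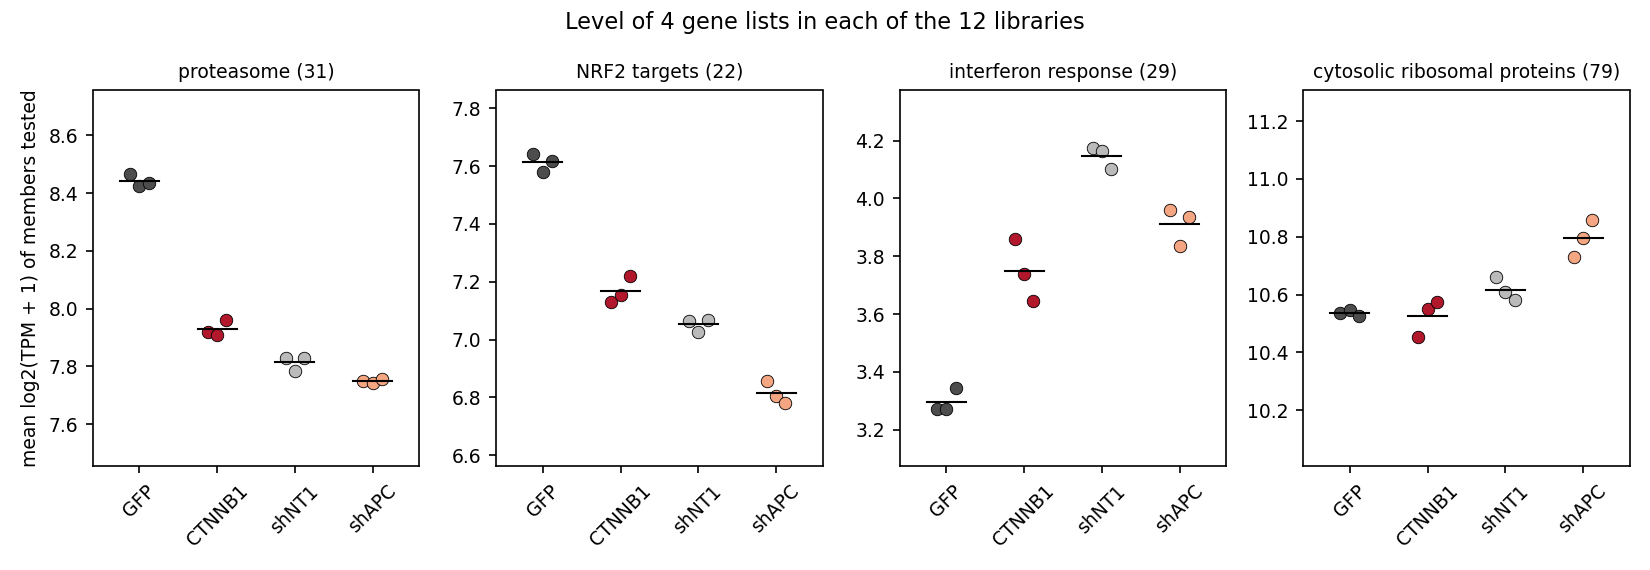
Mean log2(TPM + 1) of the tested members of 4 lists in each of the 12 libraries, with a line at each group mean; the vertical axes span the same number of log2 units but start at different levels. GFP lies above every other group for the proteasome and NRF2 targets and below every other group for interferon genes, while CTNNB1 and GFP overlap for ribosomal proteins.

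The core of the interferon-stimulated response element, searched as GAAA and GAAA with any 2 bases between them on either strand within 250 bases before the start, stood in 3.02% of all windows, in 2.36% of the windows of genes tested and in 2.38% of windows of genes called higher. In the interferon list it stood in 22 of 37 windows (59.5%) of the 30 genes matched. Of 13 tested members with the letters 9 were called higher, with a median of 0.56, and of 8 without them 4 were, with a median of 0.22. The stretches of 5 called genes show how the element recurs within one promoter and are printed on the gene's strand, letters in capitals. They are chr11:320871-320927 (minus strand) for IFITM3, chr10:89392492-89392544 (plus) for IFIT1, chr4:168318781-168318855 (minus) for DDX60, chr14:94110613-94110665 (plus) for IFI27 and chr1:27672261-27672363 (minus) for IFI6, from RefSeq GRCh38.p14.
IFITM3: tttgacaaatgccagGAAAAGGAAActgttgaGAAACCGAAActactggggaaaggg
IFIT1: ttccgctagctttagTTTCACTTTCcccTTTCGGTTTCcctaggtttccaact
DDX60: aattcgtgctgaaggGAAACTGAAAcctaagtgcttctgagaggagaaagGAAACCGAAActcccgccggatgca
IFI27: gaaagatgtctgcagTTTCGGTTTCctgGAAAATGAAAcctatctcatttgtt
IFI6: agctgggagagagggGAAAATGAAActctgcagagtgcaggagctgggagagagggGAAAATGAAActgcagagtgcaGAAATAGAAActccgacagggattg
IFITM3, IFIT1, DDX60 and IFI27 each hold 2 matches and IFI6 holds 3. Recurrence was not limited to called genes, as the uncalled IFIH1 holds 3 matches and the uncalled ISG15 and IFIT5 hold 2 each. The called IFI44 and the uncalled SAMD9 hold single matches. Matches in these genes and in IFIT3, OAS3 and BST2 are not printed.

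In antigen presentation 9 of 21 listed genes passed the filter on level, and 3 were called higher and 1 lower. TAPBP, which loads peptides onto class I molecules, rose from 13.2 ± 0.16 to 16.8 ± 1.08 TPM, while HLA-C fell from 12.8 ± 0.84 to 9.80 ± 0.56 TPM and B2M at 699.7 ± 19.2 and 743 ± 67.9 TPM was not called. The 3 higher calls became 1 without GFP replicate 1 or GFP replicate 3.

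Chemokine ligands rose. They recruit neutrophils and other leukocytes and are classical outputs of NF-kB. Of 7 ligands tested 5 were called higher, and over the whole NF-kB list of 17 tested genes 7 were higher and 1 lower, with a median of 0.23. The ligand CXCL2 averaged 0.706 TPM in GFP and passed the filter on level only through CTNNB1. Of the 15 genes averaging at least 1 TPM in both groups 6 were higher and 1 lower. CXCL1 measured 3.10, 3.29 and 2.52 TPM in GFP and 7.95, 6.25 and 6.81 TPM in CTNNB1, a log2 change of 1.01 (SE 0.11, limma adjusted p = 0.000199). CXCL8, known as interleukin-8, measured 7.92, 8.35 and 8.003 TPM in GFP and 15.3, 17.0 and 12.8 TPM in CTNNB1, a change of 0.81. Neither gene overlapped between the groups. Of 10 regulators tested 2 were called higher and 1 lower, and NFKB1 was not called at 32.5 ± 1.31 and 35.0 ± 1.62 TPM. Leaving out GFP replicate 1 or GFP replicate 2 gave 4 higher calls in the whole list, and the 1 lower call was lost whichever library was left out. For CXCL1 and CXCL8 the hairpin groups also differed, from 2.69 ± 0.62 TPM in shNT1 to 7.19 ± 0.57 TPM in the APC hairpin group for CXCL1 and from 6.28 ± 0.26 to 22.0 ± 1.60 TPM for CXCL8.

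YAP and TEAD targets were also higher. YAP is the co-activator restrained by the Hippo pathway, responds to cell shape and tension, and acts through TEAD factors. Of 17 listed targets 14 were tested, 8 were called higher and 1 lower, and the median was 0.28. AXL, a receptor tyrosine kinase, measured 0.503, 0.626 and 0.495 TPM in GFP and 2.85, 2.75 and 2.41 TPM in CTNNB1, a log2 change of 1.25 (SE 0.11, limma adjusted p = 5.83e-05). CTGF, a matricellular protein now named CCN2, measured 8.52, 8.14 and 8.86 TPM in GFP and 21.4, 19.5 and 16.6 TPM in CTNNB1, a change of 1.08 (SE 0.089, adjusted p = 5.07e-05). Both genes were clear of overlap. AXL averaged 0.541 TPM in GFP and passed the filter on level only through CTNNB1, so its call is a description. Of the 13 targets averaging at least 1 TPM in both groups 7 were higher and 1 lower. AMOTL2, which feeds back on YAP, rose from 13.3 ± 1.15 to 21.9 ± 1.503 TPM and CYR61, a relative of CTGF, from 9.09 ± 0.55 to 14.3 ± 1.29 TPM. F3, tissue factor, went the other way, from 22.8 ± 0.62 to 16.6 ± 0.84 TPM (chosen after its values were seen). VGLL1, a TEAD cofactor outside the list, measured 2.68, 3.87 and 2.87 TPM in GFP and 13.8, 13.3 and 11.6 TPM in CTNNB1 and had the third largest rise outside the WNT list among genes with a mean of at least 5 TPM. The GFP mean was lowest of the 4 groups for 6 of the 14 targets.

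The TEAD core GGAATG, searched on either strand of the same 250 bases, stood in 11.9% of all windows, in 10% of the windows of genes tested and in 7 of 16 windows (43.8%) of the 13 YAP targets matched. Of 6 tested genes with the letters 5 were called higher (median 0.53) and of 5 without them 2 were higher and 1 lower (median 0.16). They are shown for the 3 genes above that hold them, CTGF at chr6:131951447-131951556 (minus strand), AXL at chr19:41226528-41226563 (plus) and AMOTL2 at chr3:134374496-134374531 (minus), RefSeq GRCh38.p14, on the gene's strand.
CTGF: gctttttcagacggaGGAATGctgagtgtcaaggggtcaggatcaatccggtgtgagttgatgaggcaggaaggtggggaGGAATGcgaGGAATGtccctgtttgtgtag
AXL: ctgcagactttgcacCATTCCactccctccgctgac
AMOTL2: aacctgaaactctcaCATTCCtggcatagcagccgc
CTGF holds 3 matches, and the single matches in AXL and AMOTL2 lie on the opposite strand.

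Some genes of the contractile actin cytoskeleton rose from low levels. Of 26 tested actin and scaffold genes 11 were called higher and 1 lower. TAGLN, transgelin, measured 0.604, 0.727 and 0.441 TPM in GFP and 2.90, 3.70 and 3.79 TPM in CTNNB1, and MYL9, a myosin light chain, measured 0.793, 0.385 and 0.753 TPM against 3.11, 3.45 and 4.14 TPM. CNN3, calponin 3, rose from 4.60 ± 0.70 to 11.2 ± 0.79 TPM. All 3 genes were separated, by 1.49, 1.48 and 1.12 on the log2 scale. TAGLN and MYL9 were under 1 TPM in every GFP library and passed the filter on level only through CTNNB1, so their calls are a description. Of the 24 genes averaging at least 1 TPM in both groups 9 were higher and 1 lower. TAGLN and MYL9 stood at 0.443 ± 0.15 and 0.474 ± 0.19 TPM in shNT1. Fibroblast markers summed to at most 1.83 TPM in any of the 6 libraries. The higher count was 7 without GFP replicate 1, without GFP replicate 2 and under median-ratio scaling. In bulk RNA, more RNA per cell and more cells of a type cannot be told apart.

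Of the TGF-beta and BMP pathway, which signals through receptor kinases and SMAD proteins, 25 of 39 listed genes were tested, 14 were called higher and 1 lower, and the median was 0.25. GDF11, a secreted ligand, measured 2.56, 2.53 and 3.21 TPM in GFP and 5.32, 5.91 and 5.66 TPM in CTNNB1, a log2 change of 0.82 (SE 0.096, limma adjusted p = 0.000330). Among receptors and SMADs, BMPR2 rose from 15.7 ± 0.14 to 23.6 ± 3.33 TPM, TGFBR1 from 16.7 ± 0.62 to 24.2 ± 2.89 TPM and SMAD1 from 11.6 ± 0.57 to 16.2 ± 0.48 TPM, the last 2 chosen after their values were seen. Among targets, TGFBI, an extracellular matrix protein named for its induction by TGF-beta, measured 30.8, 29 and 30.4 TPM in GFP and 101, 102 and 88.9 TPM in CTNNB1. That change of 1.66 (SE 0.063, adjusted p = 6.55e-07) was the largest of the list. ID2, a BMP target, rose from 59.4 ± 1.10 to 94.7 ± 13.1 TPM. The pathway count was 9 higher without GFP replicate 1 or CTNNB1 replicate 2, 7 without GFP replicate 2 and 9 after quantile normalization, with GDF11, BMPR2, TGFBR1, SMAD1, TGFBI and ID2 called each time. The 1 lower call of the pathway was lost without any GFP replicate, CTNNB1 replicate 2 or CTNNB1 replicate 3.

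Most called genes of the EGF family list were higher. EGF ligands bind ERBB receptors and drive MAPK signalling, which crypt cells need to divide. Of 10 tested ligand, receptor and inhibitor genes 7 were called higher and 2 lower. AREG, amphiregulin, the most abundant ligand, measured 437, 466 and 446 TPM in GFP and 739.5, 682 and 619.8 TPM in CTNNB1, a log2 change of 0.59 (SE 0.062, limma adjusted p = 0.000171). EREG, epiregulin, rose from 178 ± 9.05 to 240.5 ± 20.7 TPM and BTC, betacellulin, from 4.81 ± 0.21 to 7.48 ± 0.26 TPM. EGF itself went the other way, at 3.72, 4.11 and 4.50 TPM in GFP and 0.725, 0.657 and 0.853 TPM in CTNNB1, a change of -1.55 (SE 0.10, adjusted p = 1.86e-05). HBEGF fell by 0.38 and ERBB2 rose by 0.30 on the log2 scale, both chosen after their values were seen. EGF averaged 0.745 TPM in CTNNB1 and passed the filter on level only through GFP, so its call is a description. It stood at 0.528 ± 0.086 TPM in shNT1 and 0.335 ± 0.052 TPM in the APC hairpin group, so here too GFP was the highest group. Of the 9 genes averaging at least 1 TPM in both groups 7 were higher and 1 lower. The 7 higher calls became 4 without GFP replicate 1, GFP replicate 2 or CTNNB1 replicate 2.

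Of 16 tested MAPK feedback genes 6 were higher and none lower, and a link to the EGF family changes was not tested. PHLDA1, induced by ERK signalling, rose from 47.8 ± 2.20 to 79.9 ± 9.71 TPM, and DUSP6, the phosphatase that switches ERK off, from 40.4 ± 2.93 to 65.1 ± 9.71 TPM. The count was 2 without GFP replicate 2, 3 without CTNNB1 replicate 2 and 3 after quantile normalization, and PHLDA1 and DUSP6 stayed called. Among AP-1 and immediate early genes 3 of 15 rose and 3 fell, with JUN up from 60.6 ± 3.13 to 75.7 ± 5.51 TPM and JUNB down from 31.2 ± 1.62 to 24.1 ± 2.14 TPM, and 6 rose without CTNNB1 replicate 1. The 3 rises are near the 16.3% of all genes tested. In the Notch list of 11 tested genes 3 rose and 1 fell, NOTCH1 from 12.4 ± 0.13 to 16.8 ± 0.85 TPM and its target HES1 from 42.2 ± 2.63 to 59.1 ± 7.30 TPM rising while the ligand JAG1 fell from 33.9 ± 1.13 to 25.03 ± 0.87 TPM. FGF and IGF genes gave 6 higher and 2 lower of 16, with 1 lower without any GFP replicate, CTNNB1 replicate 2 or CTNNB1 replicate 3. FGF19, an enterokine that represses bile acid synthesis, rose from 5.47 ± 0.52 to 11.4 ± 1.49 TPM, and FGFBP1, which frees FGFs from matrix, from 2.18 ± 0.29 to 5.14 ± 0.12 TPM.

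**Figure D4:**
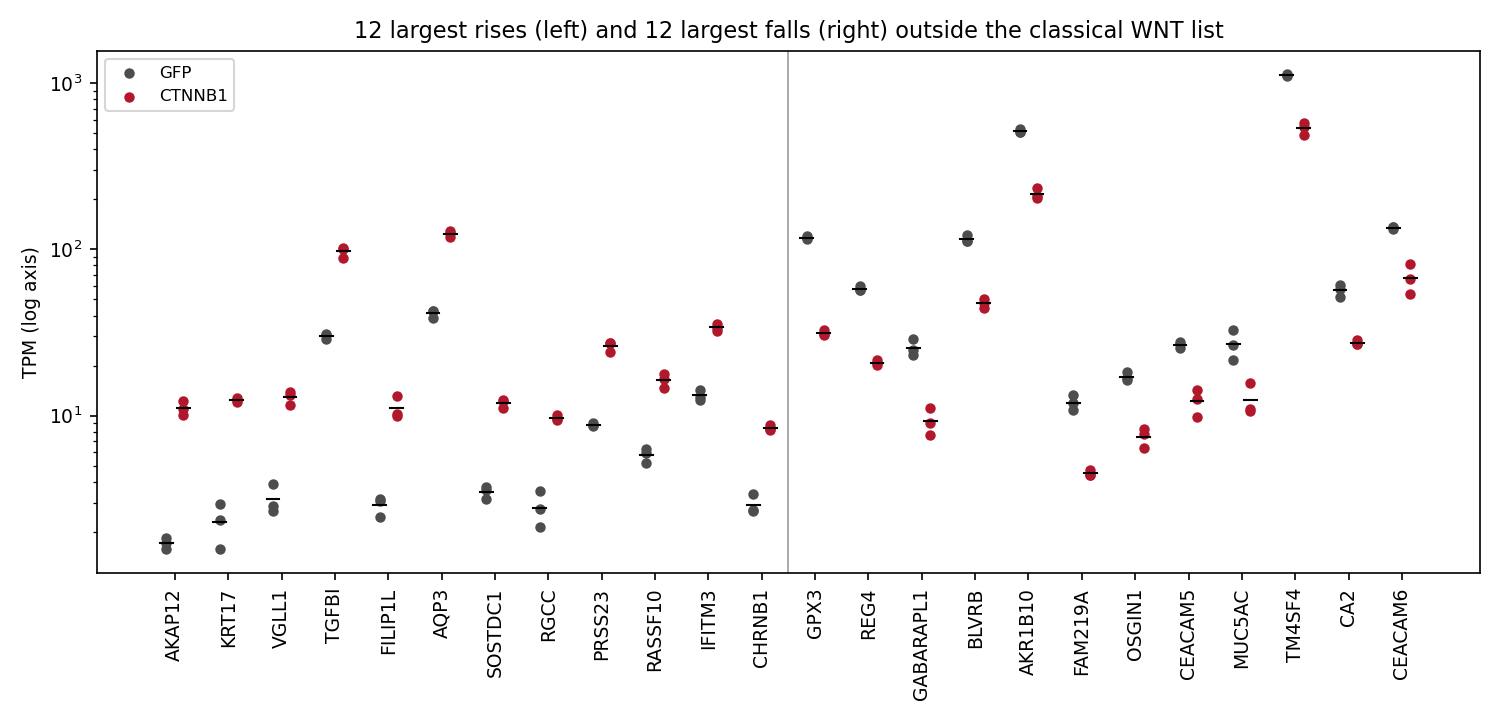
TPM (log axis) of the 12 largest rises and 12 largest falls, as points for the 3 GFP and 3 CTNNB1 libraries. A line marks each mean. They were taken from called genes outside the classical WNT list with a mean of at least 5 TPM and no overlap between the groups. The points of TM4SF4 lie near 1113 TPM in GFP and 535 TPM in CTNNB1.

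Single genes without a list were among the largest changes. AQP3, a water and glycerol channel of the colon surface, measured 38.5, 42.5 and 42.5 TPM in GFP and 119, 128 and 125 TPM in CTNNB1, a log2 change of 1.57 (SE 0.057, limma adjusted p = 5.66e-07). SOSTDC1, a secreted antagonist of BMP and WNT, rose from 3.48 ± 0.31 to 11.9 ± 0.74 TPM, and FILIP1L, which binds filamin, from 2.88 ± 0.38 to 11.1 ± 1.78 TPM. RGCC, a cell cycle regulator, rose by 1.51, PRSS23, a serine protease, by 1.48, RASSF10 by 1.35 and CHRNB1, an acetylcholine receptor subunit, by 1.27 on the log2 scale. TM4SF4, a tetraspanin relative, had the largest fall in TPM among them, from 1097, 1127 and 1115 TPM in GFP to 484, 544 and 577 TPM in CTNNB1, a change of -1.06 (SE 0.060, adjusted p = 6.22e-06). FAM219A fell by 1.23 on the log2 scale, from 11.9 ± 1.24 to 4.49 ± 0.19 TPM. A lack of overlap between the groups was a condition for naming these genes and is not a result.

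Differentiation genes moved both ways. Of 16 tested enterocyte and brush border genes 8 fell and 3 rose, with CDHR5, a brush border cadherin, down from 2.47 ± 0.37 to 1.08 ± 0.032 TPM, LGALS4, galectin-4, down from 748 ± 24.1 to 522 ± 27.1 TPM and VIL1, villin, up from 81.5 ± 2.86 to 113 ± 1.27 TPM. The 3 rises are near the 16.3% of all genes called higher, while 7.16% of all genes were called lower. Of 20 tested goblet and secretory genes 7 fell and 5 rose. MUC5AC, a gel-forming mucin, measured 26.6, 32.9 and 21.5 TPM in GFP and 15.6, 10.6 and 10.97 TPM in CTNNB1. AGR2, the disulfide isomerase that mucins need to fold, fell from 1595 ± 32.3 to 1165 ± 73.9 TPM, while RETNLB, a goblet cell peptide, rose from 2.28 ± 0.26 to 6.16 ± 0.63 TPM and MUC1, a membrane mucin, from 1.24 ± 0.13 to 2.77 ± 0.37 TPM. The 5 rises became 3 without GFP replicate 1 or 3 or CTNNB1 replicate 1 or 2 and under both scalings, and RETNLB and MUC1 remained among them. Of mucin glycosylation enzymes 3 of 17 were called higher, near the 16.3% of all genes, and 4 lower. GALNT6, which starts O-glycans, rose from 4.77 ± 0.61 to 8.71 ± 0.28 TPM, and GCNT3, which branches them, fell from 722 ± 27.3 to 490.4 ± 37.0 TPM. The 3 higher glycosylation calls became 1 without any of the GFP replicates or CTNNB1 replicate 2. None of 13 enteroendocrine genes passed the filter on level.

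S100 and annexin genes, calcium-binding proteins of the epithelial cortex, fell in 9 of 21 cases and rose in 2. Over all genes tested 7.16% were called lower and 16.3% higher. S100P measured 1187, 1218 and 1165 TPM in GFP and 613, 754 and 827 TPM in CTNNB1, a log2 change of -0.71 (SE 0.090, limma adjusted p = 0.000508). ANXA10 fell from 379 ± 7.11 to 199.6 ± 9.82 TPM and ANXA2 from 3891 ± 65.9 to 3001 ± 90.1 TPM, whereas ANXA6 went from 0.951 ± 0.11 to 4.07 ± 0.33 TPM, passing the filter on level only through CTNNB1. The S100 genes gave 5 falls and no rise among 10. Of 10 keratins tested 5 rose and 2 fell, with KRT80 up from 29.5 ± 0.63 to 45.6 ± 3.62 TPM and KRT15 down from 3.50 ± 0.21 to 1.91 ± 0.12 TPM. KRT18, the main simple keratin, rose from 4704 ± 94.9 to 5707 ± 12.4 TPM.

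Ion transport and detoxification also split by gene. Of 19 tested ion channels and transporters 7 rose and 3 fell. KCNE3 and KCNQ1 form together the basolateral potassium channel that drives chloride secretion in the colon, and KCNE3 rose from 32.6 ± 0.36 to 58.4 ± 3.88 TPM and KCNQ1 from 9.01 ± 0.41 to 15.4 ± 1.37 TPM. SLC12A2, the cotransporter that loads chloride into the cell, rose from 737 ± 6.31 to 1065 ± 125 TPM. The 7 rises became 4 without any of the GFP replicates or CTNNB1 replicate 2, with these 3 genes still called, and the 3 falls became 1 without GFP replicate 2 or 3. Of 26 tested transporters and enzymes of drug metabolism 6 rose and 9 fell. Of the 24 averaging at least 1 TPM in both groups 5 rose and 9 fell. ABCG2, a drug efflux pump, measured 91.9, 84.7 and 88.1 TPM in GFP and 53.8, 49.4 and 44.0 TPM in CTNNB1, a log2 change of -0.84 (SE 0.072, limma adjusted p = 6.03e-05). ABCB6, a porphyrin transporter, fell from 25.02 ± 1.48 to 12.8 ± 0.53 TPM, and ADH1C, an alcohol dehydrogenase, rose from 1.58 ± 0.047 to 4.05 ± 1.48 TPM. The 6 rises became 3 without any of the GFP replicates, without CTNNB1 replicate 2 and under median-ratio scaling. All 3 metallothioneins tested rose, metal-binding proteins whose near-identical copies may share reads, and MT2A went from 30.1 ± 3.97 to 46.7 ± 2.30 TPM.

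Axon guidance genes, which in epithelia steer migration, rose in 9 of 17 cases and fell in 2. SEMA3A, a secreted semaphorin, measured 19.6, 20.7 and 20.3 TPM in GFP and 40.8, 37.7 and 33.5 TPM in CTNNB1, a log2 change of 0.85 (SE 0.073, limma adjusted p = 6.07e-05). SEMA4B fell from 75.8 ± 5.10 to 56.3 ± 1.25 TPM. The 9 rises became 5 without GFP replicate 1, 4 without GFP replicate 2 or CTNNB1 replicate 2 and 6 under both scalings, with SEMA3A called throughout. Junction genes gave 8 higher and 2 lower of 30, among them CLDN2, a pore-forming claudin, from 128 ± 3.67 to 182 ± 12.7 TPM. They gave 3 higher without GFP replicate 1 or 2 and 4 without GFP replicate 3 or CTNNB1 replicate 2. Integrins, laminins, matrix and proteases gave 8 higher and 8 lower of 29, with ITGA1, a collagen receptor subunit, up from 41.2 ± 0.70 to 75.2 ± 11.3 TPM, TNC, tenascin-C, up from 1.22 ± 0.19 to 4.05 ± 0.39 TPM and ITGB7 down from 5.16 ± 0.22 to 2.53 ± 0.53 TPM. The 8 lower calls became 3 without any 1 of the GFP replicates. Of the 28 genes averaging at least 1 TPM in both groups 7 were higher and 8 lower.

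Position and chromatin genes shifted by little. Of 24 HOX genes tested 11 were called higher and none lower, with a median of 0.19 and no change above 0.43, and HOXB8, HOXC4 and HOXC6 rose by 0.38, 0.37 and 0.39. The count was 5 under median-ratio scaling, 7 after quantile normalization and 4, 6 and 5 without GFP replicates 1, 2 and 3 and 5 without CTNNB1 replicate 2. Of the 22 HOX genes averaging at least 1 TPM in both groups 10 were higher. Of 34 chromatin regulators 12 were higher and none lower with a median of 0.19, and the count was 5 under median-ratio scaling, 1 without GFP replicate 1 or 2, 6 without GFP replicate 3 and 5 without CTNNB1 replicate 2. Cell cycle inhibitors and p53 targets gave 6 higher and 1 lower of 21, against 16.3% and 7.16% of all genes tested. Of the 19 averaging at least 1 TPM in both groups 4 were higher and 1 lower. SESN1, a sestrin that restrains mTORC1, measured 9.40, 9.63 and 10.3 TPM in GFP and 26.4, 22.0 and 18.3 TPM in CTNNB1, and GDF15, a stress cytokine, rose from 67.4 ± 5.11 to 105 ± 8.14 TPM.

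Changes in large housekeeping groups were small, though some of these groups leaned lower. Of 79 cytosolic ribosomal protein genes 1 was called higher and none lower, with a median of -0.01. Ribosome biogenesis gave 1 lower of 37, cholesterol synthesis 1 higher of 25, and ER chaperones and the unfolded protein response 2 lower of 26. Mitochondrial ribosomal proteins gave 1 higher and 8 lower of 77 and nuclear genes of oxidative phosphorylation 8 lower of 76, where 7.16% of all genes were called lower. Values lay below 0 for 19 of the 26 ER genes, 59 of the 77 mitochondrial ribosomal genes and 59 of the 76 oxidative phosphorylation genes. Their medians were -0.07, -0.06 and -0.07, against 0.06 over all genes tested. With the length trend removed they were -0.06, 0.01 and -0.01, against 0.05. Under median-ratio scaling the lower counts became 9 for ribosome biogenesis, 3 for cholesterol synthesis, 12 for ER chaperones, 18 for mitochondrial ribosomal proteins and 14 for oxidative phosphorylation. Of replication genes 9 of 43 were called higher and of mitosis genes 5 of 37, with none lower, which is near the 16.3% of all genes tested, and 3 and 1 were under median-ratio scaling. The lower counts also moved with single libraries, to between 1 and 10 for mitochondrial ribosomal proteins (1 without GFP replicate 2 or 3, 2 without GFP replicate 1 or CTNNB1 replicate 2), to 3 or 4 for oxidative phosphorylation without any GFP replicate or CTNNB1 replicate 2 and 19 without CTNNB1 replicate 3, and to 9 for ER chaperones and 5 for ribosome biogenesis without CTNNB1 replicate 1. Cholesterol synthesis gave 4 higher and 1 lower without CTNNB1 replicate 3 and 2 higher without CTNNB1 replicate 1. Cytosolic ribosomal proteins gave 3 lower without CTNNB1 replicate 3 and 7 higher after quantile normalization, and their 1 higher call was lost without any GFP replicate or CTNNB1 replicate 2. The replication count was 2 without GFP replicate 1 or 2, 5 without GFP replicate 3 and 3 without CTNNB1 replicate 2, and the mitosis count was 2, 1, 2 and 3 without those libraries. FOXM1, the factor that drives mitotic genes, rose from 81.5 ± 2.33 to 97.9 ± 2.08 TPM. A p above the threshold does not show that a group stayed level. In the authors' deposited table, at an adjusted p under 0.05, 1088 of the 11609 tested genes it holds were higher (9.37%) and 1204 lower (10.4%), so the balance ran the other way from the 1898 higher and 832 lower found here. In that authors' deposited table the proteasome gave 31 lower calls, the NRF2 targets 20 lower, the interferon list 15 higher and 2 lower, the YAP list 7 higher and 1 lower, and the TGF-beta and BMP list 10 higher and 1 lower. Other lists differed more from the counts found here. HOX genes gave 3 higher and 1 lower there, chromatin regulators 2 higher and 1 lower, and the EGF family 4 higher and 3 lower. ER chaperones gave 8 lower, the lysosome list 0 higher and 10 lower, and ephrins and their receptors 0 calls.

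**Figure D5:**
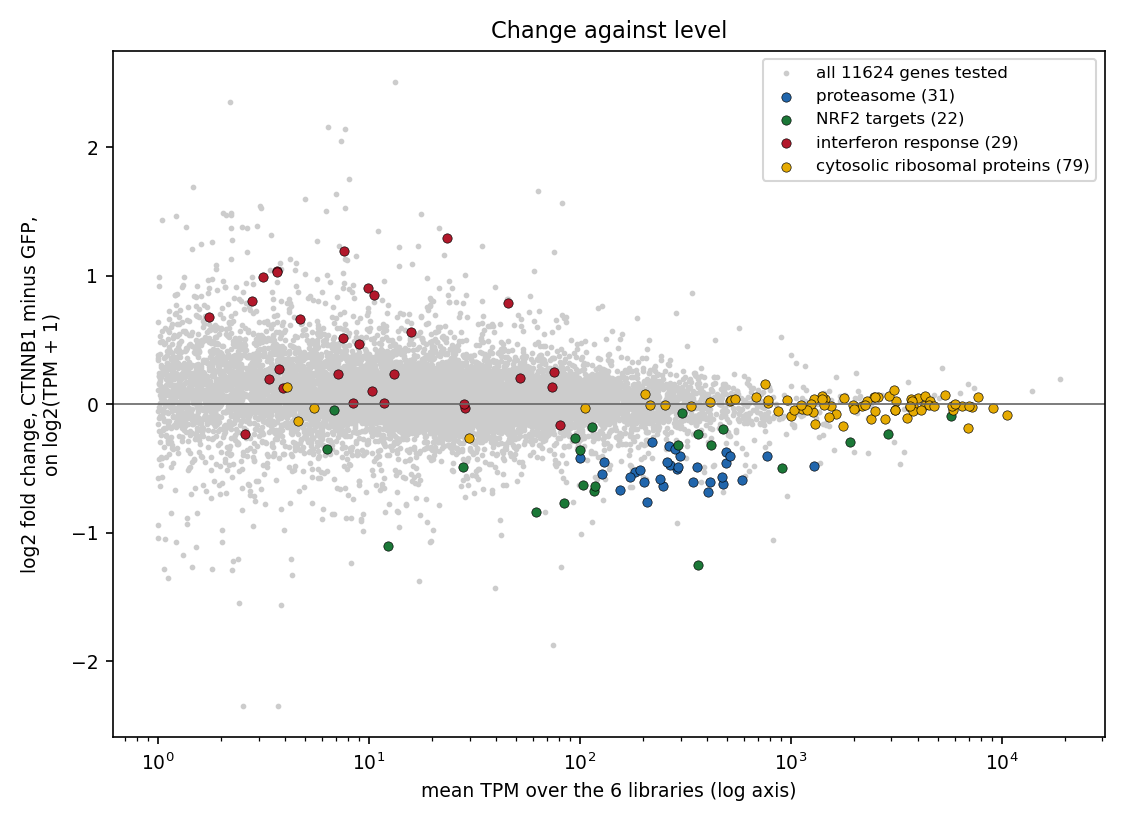
Log2 fold change (CTNNB1 minus GFP, on log2(TPM + 1)) against mean TPM over the 6 libraries (log axis) for the 11624 genes tested, with 4 lists coloured. Proteasome and NRF2 points lie below 0 at high levels, most interferon points lie above 0 at low levels, and ribosomal protein points stay near 0 at the highest levels.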

How the data were processed

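RNA-seq of 3 GFP and 3 CTNNB1 libraries of HT-29 was compared. The deposited TPM table was made by the authors with the same total (1000000) in every library. The submitters' processing notes name STAR 2.7.3a, limma and the build hg38, and how reads were counted is not given in the sources used here. With TPM only, the depth is unknown, near-identical genes may share reads, and a fold change on log2(TPM + 1) understates that of low genes. The authors' deposited table of this comparison gives log2 fold changes, p-values and moderated statistics as scores per the file headers. It was used for counts of calls only.

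Genes averaging 1 TPM or more were kept, on log2(TPM + 1), and limma 3.58.1 in R 4.3.3 was fitted to the 6 libraries with a variance trend and Benjamini-Hochberg adjustment at 0.05 over all genes kept. The fit was also run on simulated data with equal numbers of genes raised and lowered and an assumed depth. Its outcome is not reported here, and that setting cannot check the unbalanced calls found above. Gene lists (57, holding 1590 genes, 1294 of them tested) were described by counts and medians. Each count is to be read against the 16.3% called higher and 7.16% called lower over all genes tested. The genes and lists were chosen with earlier results of these data known. Genes named are the 12 largest rises and falls outside the WNT list averaging 5 TPM or more with no overlap, and up to 4 called genes with the largest change and the 2 most abundant of each list; others were chosen after their values were seen, and some genes the rule names are not reported here. Alternatives covered the pseudocount, filters, scaling, GC content and length (95.54% of genes had values), the model and each library left out. The table has 27 rows named as dates, and the 13 mitochondrially encoded genes were not analysed here.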

Additional observations from a re-analysis of the deposited data

How the results depend on the processing

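The 2730 calls became 1253 at an adjusted p under 0.01, of which 802 were higher and 451 lower. Leaving out 1 library gave 1484 to 3187 calls, 960 to 2089 of them higher and 507 to 1147 lower, where fewer samples alone can lower the count. Median-ratio scaling gave 1254 higher and 1461 lower, and the split is set by the scaling. Without a filter on low values 2257 of 17849 genes were called. Removing a trend with GC content gave 3734 calls. Of 144 genes followed by name through these settings, signs changed for 3, all uncalled, and the causes were not tested. NFE2L1 was at -0.0564 under median-ratio scaling, -0.0033 to 0.0436 with 1 library left out (lowest without GFP replicate 1) and -0.0063 with the length trend removed. NFE2L2 was at -0.0246 under median-ratio scaling and -0.0114 to 0.0908 with 1 left out (lowest without CTNNB1 replicate 1). HMOX1 was at -0.083 to 0.0334 with 1 left out (above 0 without GFP replicate 1 or CTNNB1 replicate 1), 0.0051 with the GC trend removed and 0.0060 with the length trend removed. The median of all genes tested went from 0.0573 to -0.0115 under median-ratio scaling, so other genes with small changes also changed sign. With 3 libraries a group and no read counts, small changes of low genes were not detectable at a precision that can be stated.

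The replicate numbers are shared between the groups, but the labels tie them to nothing. Deviations of same-numbered libraries from their group means correlated at 0.216, 0.0697 and 0.115 (mean 0.133). Such deviations cancel out within each group, so the mean of -0.0666 for different numbers follows from this and adds no evidence. Each library correlated best with its own number, but GFP replicate 2 did so by little (0.0697, against 0.0686 with CTNNB1 replicate 3). Whether the libraries are paired is therefore not settled. With the replicate number as a block 2895 genes were called, 1959 higher and 936 lower.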

Other observations

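Retinoid and glucocorticoid targets gave 4 higher and 1 lower of 11 tested. CRABP2, which carries retinoic acid to its receptors, measured 356, 371 and 362 TPM in GFP and 491, 522 and 531 TPM in CTNNB1, a log2 change of 0.50 (SE 0.044, limma adjusted p = 6.49e-05). RARRES1, a retinoic acid receptor responder, rose from 3.94 ± 0.33 to 8.11 ± 1.33 TPM (SD, n = 3). The groups did not overlap for either gene. BHLHE41, a clock repressor, fell from 99.7 ± 1.80 to 66.6 ± 1.64 TPM, the only lower call among 14 clock genes, of which 6 had values below 0. The 1 higher clock call was lost without GFP replicate 2 or 3 or CTNNB1 replicate 2, and quantile normalization gave 2 lower. BMF, a pro-apoptotic BH3-only gene, rose from 1.80 ± 0.096 to 3.65 ± 0.26 TPM in a BCL2 and apoptosis list of 22 with 3 higher and 1 lower.

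Fat metabolism gave 4 higher and 3 lower of 18 oxidation and PPAR genes and 1 higher and 1 lower of 10 synthesis genes. Over all genes tested 16.3% were called higher and 7.16% lower. The 4 became 2 without GFP replicate 2 or 3 or CTNNB1 replicate 2, and the 1 higher synthesis call was lost without GFP replicate 1 or 2 or CTNNB1 replicate 2. PLIN2, the lipid droplet coat protein, rose from 6.65 ± 0.44 to 10.9 ± 0.45 TPM. In the sterol path TM7SF2, a late reductase, was the single higher call, from 17.2 ± 1.12 to 30.5 ± 1.70 TPM. The ATF4 amino acid list gave 2 higher and 4 lower of 22, with PHGDH, which starts serine synthesis, up from 31.2 ± 1.83 to 40.6 ± 0.94 TPM and TRIB3 down from 30.0 ± 0.22 to 22.9 ± 0.83 TPM.

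Hypoxia targets gave 3 higher and 1 lower of 16, tRNA synthetases 1 higher and 3 lower of 20, splicing factors 6 higher of 28, nucleotide synthesis 3 higher of 20, intestinal transcription factors 4 higher of 16, ephrins and their receptors 3 higher and 1 lower of 11, and Hedgehog genes 1 higher and 2 lower of 5. Iron and heme genes gave 1 higher and 1 lower of 13. Over all genes tested 16.3% were called higher and 7.16% lower, and the higher hypoxia, splicing and nucleotide counts are near that share. Of the 15 intestinal factors averaging at least 1 TPM in both groups 3 were higher. The nucleotide count was 1 without GFP replicate 2 or CTNNB1 replicate 2. The single lower calls of the hypoxia, iron and apoptosis lists were lost without any 1 of the GFP replicates, and that of the retinoid list without GFP replicate 2 or 3. The splicing count was 1 without GFP replicate 1 or 2 and under median-ratio scaling. The 3 lower tRNA synthetases became 0 and all 3 Hedgehog calls were lost without any 1 of the GFP replicates. Without any of those libraries or CTNNB1 replicate 2 the intestinal factor count was 2, and the ephrin count was 0 higher without GFP replicate 1 or 2 or CTNNB1 replicate 2 and under median-ratio scaling. Of 14 epithelial-mesenchymal transition genes 1 passed the filter on level and it was not called.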
